A study of Mus musculus with 9 samples.

Results

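The genes described here are 31 genes known from work on prostate as targets of androgen, read in a calf muscle, the gastrocnemius. The muscle came from young adult mice of the outbred CD-1 stock. They were listed by name, and each was represented by its brightest probe set among those annotated to it alone. Of the 31 genes, 30 had such a probe set, out of 18193 genes tested. Sord, which encodes sorbitol dehydrogenase, had none and is not analysed here.

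In all, 3 treatments were compared at day 14 after surgery, in mice that were not fasted. The sham group received sham surgery with a placebo pellet. The castration group lost the testes and likewise received placebo, and the testosterone group was castrated and given a 2.5 mg testosterone pellet with 60-day release, so every mouse carried a pellet and both of the latter groups were castrated. Each treatment of 12 mice was read on 3 arrays, with RNA of 3 mice pooled per array, so 27 of 36 mice were measured and an SD or SE is a spread between pools. In whole tissue, fewer cells of a type and less RNA per cell cannot be told apart.

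Androgens such as testosterone and dihydrotestosterone enter cells and act on transcription through androgen response elements in DNA, 2 half-sites of 6 letters spaced by 3 bases. In prostate epithelium they raise genes for secreted proteases, for lipid and sterol synthesis, for sugar nucleotides and vesicle traffic, and for kinases and cofactors that act back on growth and on the hormone response. Skeletal muscle also responds to androgens, and their loss thins muscle fibres. The question was which of the prostate targets respond in this muscle.

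Values are log2 expression, and a difference of 1 on that scale is 2-fold. The tissue label matched the arrays: the 11 muscle fibre markers had group means from 11.89 (desmin, Des, in castration) to 14.22 (Acta1, skeletal actin, in sham and castration), near the top of the scale at 14.24. A level of 3.42, under which 95% of chemosensory receptor probe sets lie, was taken as background, and the prostate secretory genes Pbsn and Msmb were below it on every array. The epithelial keratins Krt8 and Krt19 were above it on sham 2 alone, at 3.61 and 3.59. Arrays sham 2 and testosterone 2 stood apart, with mean correlations of 0.973 and 0.983 to the other arrays against 0.990 to 0.991 for the rest. The adipocyte marker score, the mean log2 deviation of 10 fat cell genes, was 1.00 on sham 2 and 0.95 on testosterone 2, -0.56 to -0.52 on the castration arrays and -0.45 to 0.38 on the remaining 4.

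None of the 30 prostate targets passed the test in any comparison (limma, Benjamini-Hochberg adjusted p under 0.05 over all genes). Few other genes did: the share called was 0% of all genes in castration versus sham, 0% in testosterone versus castration and 0% in testosterone versus sham. Castration set against the mean of sham and testosterone, a comparison the design text does not name, called 10 genes, 0.055% of all, and no member. The smallest adjusted p of a member was 0.838 in castration versus sham, 0.9998 in testosterone versus castration, 0.780 in testosterone versus sham and 0.769 in castration against both.

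Other genes did separate castration from both other groups on the same arrays. Smox, spermine oxidase, read 10.63, 9.65 and 10.09 in sham, 7.48, 8.09 and 8.03 in castration and 10.15, 10.24 and 10.55 in testosterone. Every castration array lay below every other array. Smox fell by 2.35 in castration against both other groups (SE 0.22, limma adjusted p = 0.0244). Fkbp5, a receptor co-chaperone and a classical target in prostate, read 7.99, 7.43 and 7.22 in sham, 6.30, 6.32 and 6.58 in castration and 7.87, 7.78 and 7.92 in testosterone, and fell by 1.30 (SE 0.16, limma adjusted p = 0.0432). Odc1, the ornithine decarboxylase that opens polyamine synthesis, and Hr, the corepressor hairless, were lower by the same contrast, with differences of -1.33 and -1.29, but did not pass (limma adjusted p = 0.0853 and 0.0561). Earlier results of these data had picked these 4 genes, so their values describe the arrays and are not independent evidence.

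**Figure D1:**
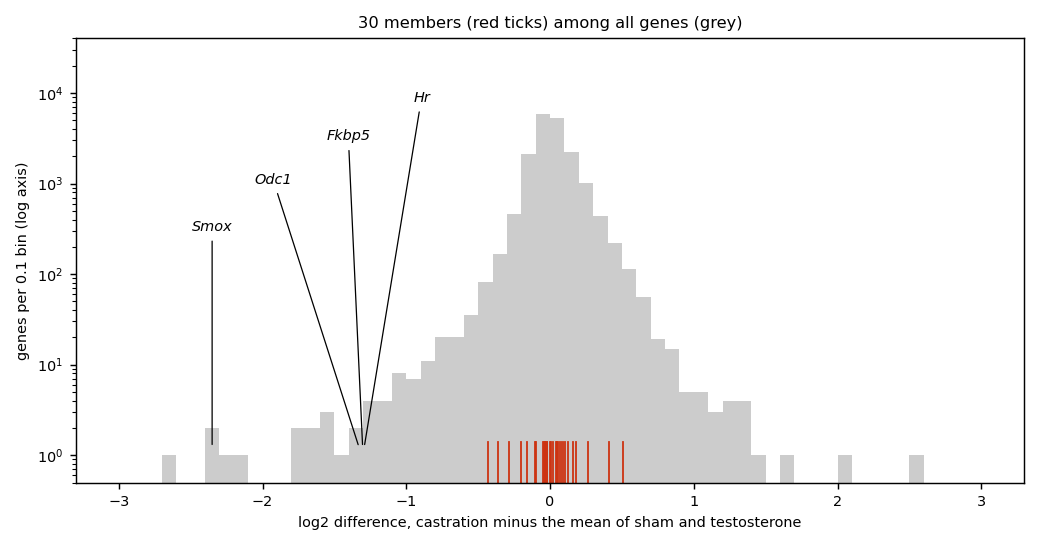
Grey bars count all 18193 genes by their log2 difference, castration minus the mean of sham and testosterone, on a log axis, and red ticks mark the 30 members. The members lie between -0.43 (Insig1) and 0.51 (Acsl3), while Smox stands at -2.35 and Fkbp5, Hr and Odc1 between -1.33 and -1.29.

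Before adjustment, castration versus sham had 3 of 30 members (10%) at p under 0.05, all lower, against 4.72% of all genes. Testosterone versus castration had 2 (6.67%), both higher, against 3.48%. Testosterone versus sham had 2 (6.67%), both lower, against 4.35%, and castration against both had 2 (6.67%), both lower, against 4.02%. Members whose groups did not overlap numbered 3 in castration versus sham (10%, all genes 8.89%), 2 in testosterone versus castration (6.67%, all genes 9.01%), 3 in testosterone versus sham (10%, all genes 6.47%) and 1 in castration against both (3.33%, all genes 3.06%). Each of these counts differs by fewer than 2 genes from what the share of all genes would give in 30. The comparisons share arrays, so their counts are not independent of each other. The members concerned were Tsc22d1, Pmepa1, Azgp1 and Iqgap2, with Slc26a2 among the genes whose groups did not overlap.

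**Figure D2:**
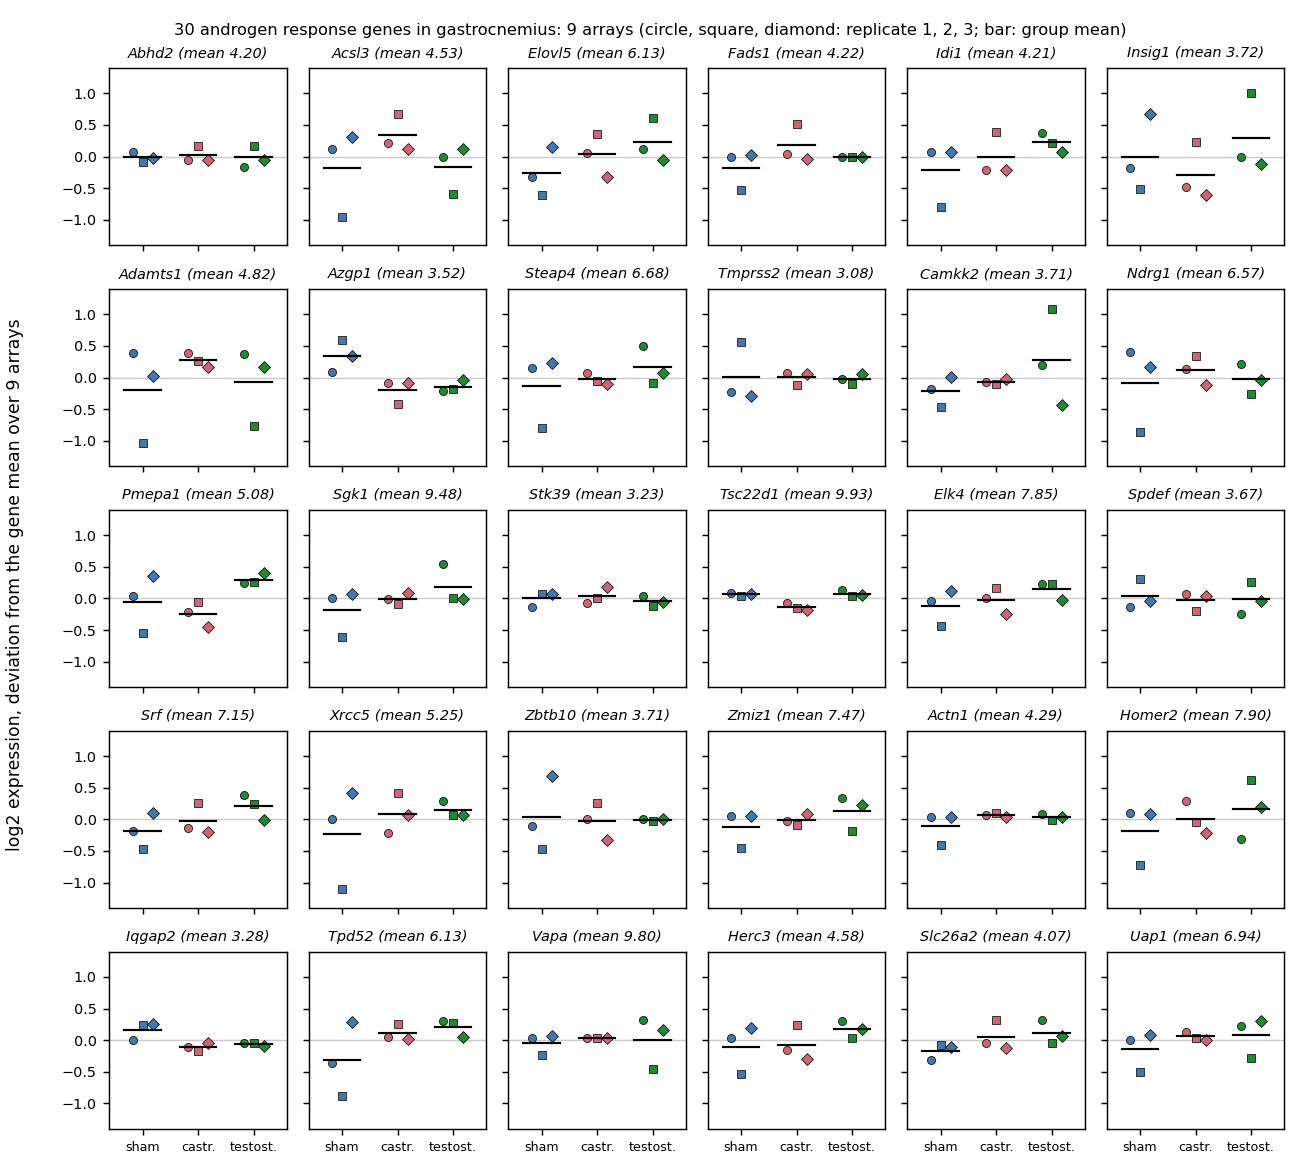
Each panel shows 1 of the 30 members as its log2 deviation from the gene's mean over 9 arrays, by group, with circle, square and diamond for replicates 1, 2 and 3, and a bar for the group mean. The blue square, sham 2, is the lowest array for 20 members, and for Tsc22d1 the 3 castration arrays lie below the other 6.

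Tsc22d1, a leucine zipper protein induced by TGF-beta and glucocorticoids, was the only member whose castration arrays all lay below all sham and all testosterone arrays. It read 10.02, 9.96 and 10.0045 in sham, 9.85, 9.78 and 9.75 in castration and 10.06, 9.97 and 9.98 in testosterone. The gap was small beside its high signal: the castration mean was 1.15-fold below sham and 1.15-fold below both groups together, and the testosterone mean 1.16-fold above castration. The log2 differences were -0.20 (SE 0.07, 95% interval -0.36 to -0.04) in castration versus sham, 0.21 (SE 0.07, 0.05 to 0.37) in testosterone versus castration and 0.01 (SE 0.07) in testosterone versus sham. Against both groups together castration differed by -0.20 (SE 0.06). The limma adjusted p values were 0.838, 0.9998, 0.983 and 0.769 in that order.

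The other probe sets of Tsc22d1 gave a mixed picture. It has 7 in all, and the brightest carries the suffix for probes that can cross-hybridise. The second read 9.36, 8.98 and 9.15 in sham, 9.02, 9.01 and 8.99 in castration and 9.31, 9.05 and 9.23 in testosterone, so its castration values overlapped sham but not testosterone. Used in place of the first, it gave -0.16 (SE 0.11) in castration versus sham and 0.19 (SE 0.11) in testosterone versus castration. A dim set near the background level read 3.30, 3.23 and 3.29 in sham and 3.46 on each castration array, higher by 0.18 (SE 0.08) and opposite to the brightest. Signs matched the brightest in 5 of 7 sets for castration versus sham and in 4 of 7 for testosterone versus castration, counting the brightest itself, and the mean over all sets differed by only -0.04 and 0.08.

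**Figure D3:**
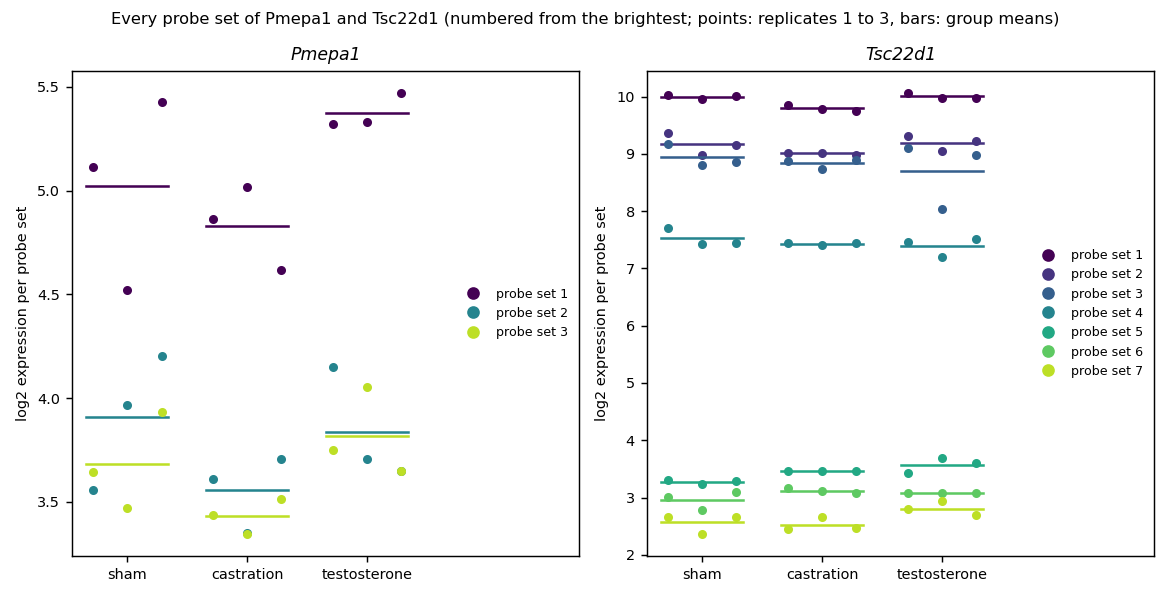
Points give log2 expression on each array for every probe set of Pmepa1 (left, 3 sets) and Tsc22d1 (right, 7 sets), with bars at group means. All 3 Pmepa1 sets have their lowest group mean in castration, while the Tsc22d1 sets differ in direction and 3 of the 7 read below 4.

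Of Tsc22d1, 5 start sites have a promoter window in the RefSeq table (GRCm38.p6, 250 bases before to 50 after the start). One of them, at chr14:76503976-76504275 on the plus strand, holds the androgen response half-site AGAACA, 137 bases upstream of the start. It is shown, with the half-site in capitals, because Tsc22d1 was the member whose brightest probe set separated castration from both other groups.
Tsc22d1: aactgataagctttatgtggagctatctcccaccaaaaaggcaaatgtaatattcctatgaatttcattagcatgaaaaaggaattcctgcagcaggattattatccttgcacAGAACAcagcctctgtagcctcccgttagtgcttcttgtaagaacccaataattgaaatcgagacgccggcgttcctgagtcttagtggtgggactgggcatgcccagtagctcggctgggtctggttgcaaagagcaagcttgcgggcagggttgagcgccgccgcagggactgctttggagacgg

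Over all members, 25 of 31 had a window, 37 windows in all, and 6, Fads1, Ndrg1, Pmepa1, Slc26a2, Tpd52 and Zbtb10, had none. The half-site, searched on both strands, was found in 8 of 37 windows (21.6%) and 6 of 25 genes, against 19.0% of 32851 windows and 21.3% of all genes. The genes were Azgp1, Sgk1, Spdef, Tsc22d1, Uap1 and Xrcc5. The full palindrome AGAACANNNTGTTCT contains a half-site match on each strand and was found in 1 member window and in 3 of all 32851. That window belongs to Sgk1, the serum and glucocorticoid regulated kinase, at chr10:21993640-21993939 on the plus strand. It is shown because it is the only member window with the whole element, which starts 189 bases upstream of the start site. Capitals mark that element and a single half-site further upstream.
Sgk1: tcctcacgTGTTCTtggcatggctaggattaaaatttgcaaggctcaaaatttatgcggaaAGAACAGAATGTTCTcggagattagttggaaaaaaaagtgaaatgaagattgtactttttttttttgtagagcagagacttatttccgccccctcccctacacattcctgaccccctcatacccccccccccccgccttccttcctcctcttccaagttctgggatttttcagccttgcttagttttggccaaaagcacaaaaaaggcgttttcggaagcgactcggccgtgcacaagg

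The groups overlapped in Sgk1 expression. It read 9.48, 8.87 and 9.54 in sham, 9.47, 9.38 and 9.57 in castration and 10.02, 9.48 and 9.47 in testosterone. Testosterone 1 was the highest array and sham 2 the lowest, and the other 7 lay within 9.38 to 9.57. The castration mean, 9.48, lay about midway between those of sham, 9.30, and testosterone, 9.66. Castration minus the mean of both other groups was therefore 0.00 (95% interval -0.41 to 0.40), within 1.5-fold either way. Castration minus sham was 0.18 (-0.29 to 0.64), testosterone minus castration 0.18 (-0.28 to 0.65) and testosterone minus sham 0.36 (-0.11 to 0.82). Each of these pairwise intervals reached beyond 1.5-fold. The palindrome is also a glucocorticoid response element, and a match of letters says nothing on binding in this tissue.

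Pmepa1 encodes a membrane protein that ties up SMAD proteins and dampens TGF-beta signalling, and it is a well known androgen target in prostate cells. It read 5.11, 4.52 and 5.43 in sham, 4.86, 5.02 and 4.62 in castration and 5.32, 5.33 and 5.47 in testosterone. All testosterone arrays lay above all castration arrays, while sham overlapped both, with sham 2 the lowest array of all. Testosterone minus castration was 0.54 (SE 0.21, 95% interval 0.06 to 1.02, 1.46-fold, limma adjusted p = 0.9998), castration minus sham -0.19 (SE 0.21) and testosterone minus sham 0.35 (SE 0.21). Without sham 2, castration minus sham was -0.44 (SE 0.14), which did not pass after adjustment.

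Both dimmer probe sets of Pmepa1 pointed the same way. One read 3.64, 3.47 and 3.93 in sham, 3.44, 3.35 and 3.51 in castration and 3.75, 4.05 and 3.65 in testosterone. Its testosterone arrays also lay above its castration arrays, by 0.38 (SE 0.14). The third was higher by 0.28 (SE 0.19) and overlapped. The probe sets are read on the same arrays, so they share the pools and are not further replicates.

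Azgp1, a secreted lipid mobilising glycoprotein made by prostate, liver and fat, was highest in sham. It read 3.60, 4.12 and 3.86 in sham, 3.44, 3.11 and 3.44 in castration and 3.31, 3.33 and 3.48 in testosterone. The sham arrays lay above all 6 arrays of castrated mice, with or without hormone, and the means of the latter groups, 3.33 and 3.37, were below the background level. Castration minus sham was -0.53 (SE 0.15, 95% interval -0.86 to -0.20, 1.44-fold lower, limma adjusted p = 0.838) and testosterone minus sham -0.48 (SE 0.15, limma adjusted p = 0.780), whereas testosterone minus castration was 0.05 (95% interval -0.29 to 0.38). It was highest on sham 2, the array with the highest adipocyte score, and without that array castration minus sham was -0.40 (SE 0.13). On testosterone 2, with an adipocyte score of 0.95, Azgp1 read 3.33. On sham 1, with a score of -0.325, Azgp1 read 3.60. Sham 2 also had the highest epithelial and epidermal marker scores, 0.23 and 0.48. The part of fat or epithelial cells in this difference was not tested.

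Iqgap2, a scaffold that links small GTPases to actin, showed the same order of groups. It read 3.29, 3.52 and 3.54 in sham, 3.17, 3.11 and 3.24 in castration and 3.24, 3.24 and 3.18 in testosterone. Sham lay above both other groups on every array. Castration minus sham was -0.28 (SE 0.09, limma adjusted p = 0.838) and testosterone minus sham -0.23 (SE 0.09, limma adjusted p = 0.780). Only the sham mean, 3.45, was above background.

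**Figure D4:**
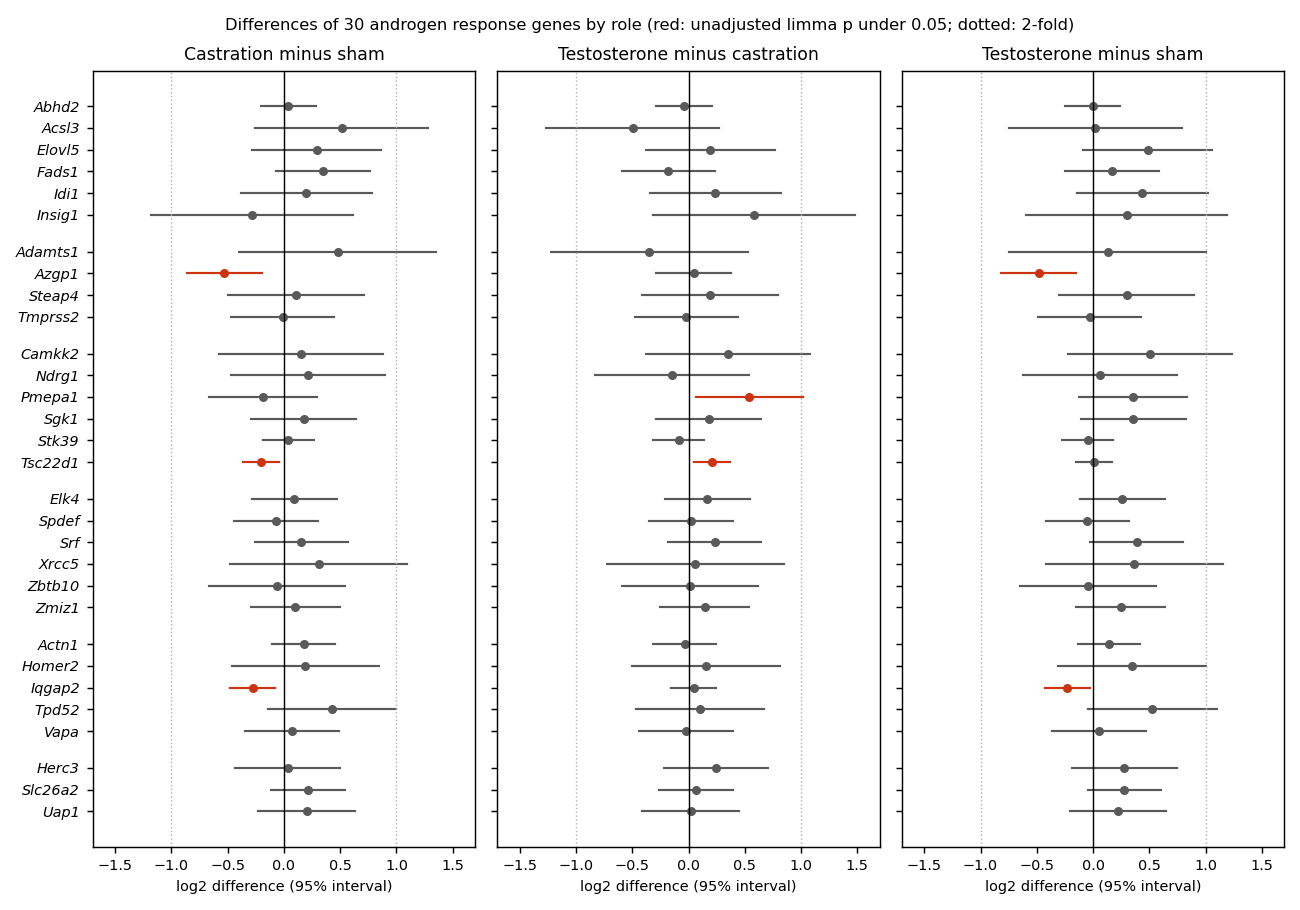
Points are log2 differences of the 30 members with 95% intervals in the 3 pairwise comparisons, grouped by role as in the text, in red where the unadjusted limma p is under 0.05. The red points are Azgp1, Tsc22d1 and Iqgap2 on the left, Pmepa1 and Tsc22d1 in the middle and Azgp1 and Iqgap2 on the right, and dotted lines mark 2-fold.

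The remaining members are taken by role. The lipid and sterol group had 6 members, and 0 reached an unadjusted p under 0.05 in any comparison. With 3.48% to 4.72% of all genes at that level, few or none would be expected among 6. Insig1, which holds the sterol sensing complex in the endoplasmic reticulum, read 3.54, 3.21 and 4.40 in sham, 3.24, 3.95 and 3.11 in castration and 3.72, 4.73 and 3.60 in testosterone. It had both the lowest difference of the group in castration versus sham, -0.28, and the highest in testosterone versus castration, 0.58 (SE 0.39). The arrays of all 3 groups overlapped.

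Acsl3, an acyl-CoA synthetase of lipid droplets, went the other way. Its values were 4.65, 3.57 and 4.84 in sham, 4.75, 5.21 and 4.65 in castration and 4.53, 3.93 and 4.65 in testosterone, which put castration above sham by 0.51 (SE 0.34) and above testosterone by 0.50. Sham 2 and testosterone 2 were its lowest arrays. Elovl5, the elongase of polyunsaturated fatty acids, read 5.81, 5.52 and 6.28 in sham, 6.19, 6.49 and 5.81 in castration and 6.25, 6.75 and 6.07 in testosterone, 0.48 above sham (SE 0.25).

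Fads1, a fatty acid desaturase, read 4.21, 3.68 and 4.24 in sham, 4.26, 4.74 and 4.19 in castration and 4.2132 on each testosterone array. The same value, 4.2132, stood on sham 1, and the tied testosterone arrays add nothing to the spread behind its SE. Castration lay above sham by 0.35 (SE 0.18) with overlapping arrays. Idi1, an isomerase of the mevalonate pathway, differed by 0.24 between testosterone and castration (SE 0.26). Its second probe set, whose group means were below background, read 2.73, 2.53 and 2.88 in sham, 2.74, 2.92 and 2.69 in castration and 3.41, 3.37 and 2.94 in testosterone. Testosterone lay above the other 2 groups on every array of that set, by 0.46 over castration and 0.53 over sham (SE 0.14 for both, limma adjusted p = 0.9999 and 0.797). Abhd2, a lipid hydrolase, read 4.26, 4.12 and 4.17 in sham, 4.15, 4.37 and 4.15 in castration and 4.04, 4.36 and 4.15 in testosterone, and its 3 pairwise differences were 0.04 or less in size.

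Among the secreted and membrane proteins, Adamts1, a metalloproteinase of the ADAMTS family, read 5.21, 3.79 and 4.85 in sham, 5.21, 5.08 and 4.98 in castration and 5.19, 4.05 and 4.98 in testosterone. It was lowest on sham 2 and testosterone 2, and its castration minus sham value was 0.48 (SE 0.38). Steap4, a metalloreductase of the plasma membrane, read 6.84, 5.88 and 6.91 in sham, 6.76, 6.62 and 6.57 in castration and 7.17, 6.60 and 6.76 in testosterone. Testosterone minus castration was 0.19 (SE 0.26). Tmprss2, the serine protease known from prostate gene fusions, was near background in all 3 groups, as were all 4 of its probe sets. The set used read 2.79 to 3.14 apart from 3.63 on sham 2.

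The signalling group held Tsc22d1, Pmepa1 and Sgk1 with 3 others. Camkk2, a kinase that activates AMPK, read 3.52, 3.24 and 3.72 in sham, 3.64, 3.61 and 3.68 in castration and 3.91, 4.79 and 3.28 in testosterone. Testosterone 2 was its highest array, and testosterone minus sham was 0.50 (SE 0.32). Ndrg1, a stress and differentiation gene, read 6.97, 5.71 and 6.74 in sham, 6.71, 6.91 and 6.46 in castration and 6.78, 6.31 and 6.53 in testosterone, with the lowest testosterone minus castration value of the group, -0.15 (SE 0.30). Stk39, a kinase that regulates ion cotransporters, was the other member near background in all groups, at 3.09 to 3.41.

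In the transcription and nuclear group 0 of 6 members reached an unadjusted p under 0.05 in any comparison. The share of all genes was 3.48% to 4.72%, so few or none would be expected among 6. Srf, the serum response factor, read 6.97, 6.68 and 7.26 in sham, 7.01, 7.41 and 6.96 in castration and 7.54, 7.40 and 7.14 in testosterone, 0.39 above sham (SE 0.18). Its second probe set read higher in castration than in sham by 0.19 and in testosterone than in sham by 0.19, with no overlap (SE 0.08 for both). Elk4, the ETS factor that pairs with Srf on DNA, differed by 0.26 between testosterone and sham (SE 0.16).

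Xrcc5, a Ku subunit of DNA end joining, read 5.25, 4.14 and 5.67 in sham, 5.02, 5.66 and 5.31 in castration and 5.54, 5.31 and 5.31 in testosterone. Its castration minus sham value was 0.31 (SE 0.34), and sham 2 was the lowest array. Spdef, an ETS factor of secretory epithelium, read 3.53, 3.98 and 3.63 in sham, 3.75, 3.47 and 3.71 in castration and 3.42, 3.93 and 3.64 in testosterone, with pairwise differences from -0.07 to 0.02. Zbtb10, a zinc finger repressor, read 3.61, 3.24 and 4.39 in sham, 3.71, 3.97 and 3.38 in castration and 3.71, 3.68 and 3.71 in testosterone. Zmiz1, a transcriptional coactivator, differed by 0.14 between testosterone and castration (SE 0.17).

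In the cytoskeleton and vesicle group, Tpd52, a vesicle traffic protein often overexpressed in prostate tumours, read 5.77, 5.25 and 6.41 in sham, 6.19, 6.38 and 6.14 in castration and 6.44, 6.41 and 6.17 in testosterone. Both other groups were higher than sham, by 0.43 and 0.53 (SE 0.25 for both), and sham 3 overlapped them. Homer2, a postsynaptic scaffold, read 8.0, 7.18 and 7.98 in sham, 8.20, 7.86 and 7.68 in castration and 7.59, 8.52 and 8.10 in testosterone. Actn1, a crosslinker of actin, read 4.33, 3.89 and 4.33 in sham, 4.36, 4.39 and 4.33 in castration and 4.37, 4.27 and 4.33 in testosterone, and only sham 2 was clearly apart. Vapa, a tether of the endoplasmic reticulum, read 9.83, 9.57 and 9.86 in sham, 9.83 on each castration array and 10.12, 9.35 and 9.96 in testosterone. Its differences were 0.074 or less in size in every comparison, with testosterone 2 its lowest array. Its second probe set was higher in testosterone than in sham by 0.31 and than in castration by 0.19 (SE 0.20 for both), with overlap. The remaining set was below background.

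The metabolism and transport group had 3 measured members. Slc26a2, the sulfate transporter needed for proteoglycans, read 3.76, 4.00 and 3.97 in sham, 4.03, 4.39 and 3.95 in castration and 4.40, 4.03 and 4.13 in testosterone. All testosterone arrays lay above all sham arrays, by 0.28 on average (SE 0.14). Uap1, which makes UDP-N-acetylglucosamine, read 6.95, 6.44 and 7.02 in sham, 7.08, 6.98 and 6.95 in castration and 7.16, 6.66 and 7.24 in testosterone. Herc3, a ubiquitin ligase, read 4.61, 4.05 and 4.78 in sham, 4.43, 4.82 and 4.29 in castration and 4.89, 4.61 and 4.77 in testosterone, and testosterone minus castration was 0.24 (SE 0.20).

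The members varied more between arrays of a group than genes at large. The median SD within groups was 0.28 for the members and 0.16 for all genes. Members and all genes were not matched for signal level in these medians. Sham 2 was the lowest of the 9 arrays for 20 of 30 members, against 30.6% of all genes, and the members' mean deviation there was -0.41, against -0.09 to 0.15 on the other 8. That array also had the highest adipocyte, epithelial and epidermal marker scores, 1.00, 0.23 and 0.48. Its endothelial and fibroblast scores were the lowest, -0.48 and -0.53, while the macrophage and lymphocyte score was highest on testosterone 2, at 1.18. The part of tissue composition in this pattern was not tested.

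The median difference of the members was 0.13 in castration versus sham (all genes 0.01), 0.06 in testosterone versus castration (-0.01) and 0.23 in testosterone versus sham (0.01). Differences were positive in 22, 21 and 23 of the 30 (73.3%, 70% and 76.7%), against 52.9%, 48.2% and 52.1% of all genes. Without sham 2 and testosterone 2, the medians were -0.03, 0.07 and 0.04, and 14, 19 and 18 differences were positive.

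Leaving out sham 2 and testosterone 2, a choice made after seeing the data, also raised the number of members at an unadjusted p under 0.05. There were then 5 (16.7%, all genes 5.38%) in castration versus sham, Azgp1, Iqgap2, Pmepa1 and Tsc22d1 lower and Tmprss2 higher, the last at background level. Testosterone versus castration had 6 (20%, all genes 5.78%), all higher: Pmepa1 by 0.56 (SE 0.14), Zmiz1 by 0.30 (SE 0.08), Tsc22d1 by 0.23 (SE 0.07), Vapa by 0.21 (SE 0.08), Uap1 by 0.20 (SE 0.08) and Steap4 by 0.31 (SE 0.13). Testosterone versus sham had 4 (13.3%, all genes 3.13%), all higher: Slc26a2 by 0.40 (SE 0.17), Zmiz1 by 0.23 (SE 0.09), Uap1 by 0.22 (SE 0.09) and Tmprss2, at background level, by 0.28 (SE 0.09). Azgp1 and Iqgap2, the 2 at that level with all 9 arrays, both lower, were not among them. Castration against both had 4 (13.3%, all genes 6.25%), all lower: Pmepa1, Steap4, Tsc22d1 and Zmiz1. Still 0 members passed after adjustment, and the smallest adjusted p in testosterone versus castration was 0.443.

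The intervals bound the size of difference in array signal that these arrays leave room for. Near background the signal may not follow the transcript, so a narrow interval there does not bound the response of the gene. Tmprss2 and Stk39, near background in all groups, are among the members counted. The 95% interval lay within 2-fold either way for 26 of 30 members in castration versus sham (86.7%, all genes 92.7%), 25 in testosterone versus castration (83.3%, all genes 95%) and 22 in testosterone versus sham (73.3%, all genes 92.9%). Within 1.5-fold the counts were 13 (43.3%, all genes 73.7%), 13 (43.3%, all genes 77.3%) and 9 (30%, all genes 73%), so a smaller share of the members than of all genes was bounded this tightly. The members and all genes were not matched for signal level in these shares. For comparison, Smox differed by 2.26 and 2.45 on the log2 scale in size in the first 2 comparisons, and Fkbp5 by 1.15 and 1.46.

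Other androgen response genes of the same kind, 59 of 67 measured, were read beside the members; this list and those after it were also drawn up with results of these data known. None passed in the pairwise comparisons. In castration versus sham 2 were higher and 4 lower at an unadjusted p under 0.05 (10.2%, all genes 4.72%), led by Fkbp5 (-1.15, SE 0.18) and Slc38a2, an amino acid transporter (-0.83, SE 0.25). Scd1, stearoyl-CoA desaturase, differed by -2.58 (SE 0.83). It read 10.57 on sham 2 and 10.71 on testosterone 2, the arrays with the highest adipocyte scores, and 6.20 to 7.10 in castration, and the part of fat cells in its difference was not tested. Pa2g4, an ErbB3 binding protein, was higher in castration by 0.55 (SE 0.18).

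In testosterone versus castration 7 of the 59 were higher and 0 lower at that level (11.9%, all genes 3.48%). Fkbp5 differed by 1.46, Slc38a2 by 1.29 (SE 0.25), Ube2j1, a ubiquitin conjugating enzyme of the endoplasmic reticulum, by 0.46 (SE 0.13) and Pdlim5, a scaffold at the Z-disc, by 0.38 (SE 0.11). Pdlim5 read 10.74, 10.95 and 10.63 in castration and 11.22, 11.0015 and 11.23 in testosterone, which did not overlap. In testosterone versus sham 3 were higher (5.08%, all genes 4.35%), Rrp12 (0.43), Ube2j1 (0.35) and Pias1 (0.45). Against both groups together 9 reached an unadjusted p under 0.05 (15.3%, all genes 4.02%), and 1, Fkbp5, passed after adjustment. Without sham 2 and testosterone 2 the counts at an unadjusted p under 0.05 were 2 higher and 5 lower in castration versus sham (11.9%, all genes 5.38%) and 9 higher and 3 lower in testosterone versus castration (20.3%, all genes 5.78%). Slc38a2, named after its values were seen, then passed in both (limma adjusted p = 0.0282, lower in castration, and 0.0155, higher with testosterone). With all 9 arrays it had read 8.89, 8.02 and 9.11 in sham, the lowest being sham 2, 7.72, 8.02 and 7.79 in castration and 9.21, 9.02 and 9.17 in testosterone. Without the 2 arrays Fkbp5 did not pass in either pairwise comparison (limma adjusted p = 0.169 and 0.0713), and it and Slc38a2 passed in castration against both groups (0.0410 and 0.00588).

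Lists around the members' pathways were read the same way in testosterone versus castration, where 3.48% of all genes reached an unadjusted p under 0.05. Of 15 measured sterol regulated genes, 1 (6.67%) was higher at that level, Hmgcs1 of the mevalonate pathway (0.71, SE 0.31), and 0 lower. Hmgcs1 read 8.10, 8.49 and 7.88 in castration and 8.88, 9.53 and 8.18 in testosterone. These groups overlapped, and testosterone 2 was its highest array. Of 12 genes of fatty acid synthesis, 2 (16.7%) were higher, Srebf1 (0.53, SE 0.15) and Scd1 (2.73, SE 0.83). All 10 measured adipocyte markers were also higher, 2 at an unadjusted p under 0.05, with a median difference of 0.72, and their part in these values was not tested. Of 14 glucocorticoid response genes, 3 were higher and 3 lower (42.9%): Fkbp5, Zbtb16 (1.15, SE 0.29) and Mt1 (0.79, SE 0.25) against Sesn1 (-1.35, SE 0.21), Klf15 (-0.38) and Per1 (-0.71). None of these passed in that comparison after adjustment.

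Of 15 SRF target genes, 3 (20%, all genes 3.48%) reached an unadjusted p under 0.05 in testosterone versus castration. Actc1, cardiac actin, was lower, with a difference of -3.0 (limma adjusted p = 0.0610), while Junb and Ccn1 were higher by 0.29 and 0.56. The other 12 did not reach it.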

How the data were processed

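Gastrocnemius RNA was measured on 9 Affymetrix arrays. Per the submitters' processing notes the authors used RMA (version: not given in the sources used here), and the deposited values are log2 expression per probe set. RMA normalises all arrays to each other, so an aberrant array can move the rest. Values were used as deposited. Some are tied between arrays of a group, as in Fads1, Iqgap2 and Actn1, which can narrow the spread within that group. Of 45101 probe sets, 64 controls, 932 listed to several genes and 9160 unlisted were left out, and the brightest of each gene's remaining probe sets gave 18193 genes.

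A two-sided limma test (version 3.58.1, R 4.3.3) was fitted to the 9 arrays with group alone as a term, with Benjamini-Hochberg adjustment over all genes at 0.05. The script was tested on simulated data. P-values measure the spread between pools. The number of arrays limits the precision. Members and lists were chosen with earlier results of these data known. All members are accounted for, and full statistics are given for those with an unadjusted p under 0.05. From other lists up to 4 genes with the smallest p were named, and Fkbp5, Smox and Odc1 throughout. Promoter windows come from RefSeq (GRCm38.p6). Alternatives were a replicate block, only the groups compared, other probe set choices, no dim genes, renewed normalisation, median centring, intensity trend, robust variances, array weights and each array left out.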

Additional observations from a re-analysis of the deposited data

How the results depend on the processing

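No alternative called a member after adjustment in any of the 4 comparisons, and 3 arrays per group limit every value. In castration versus sham, members at an unadjusted p under 0.05 (3) numbered 7 with array weights and 5 without the arrays sham 2 and testosterone 2, which was a choice made after seeing the data, and 2 to 5 with 1 array left out, 5 being without sham 2. Tsc22d1 dropped out, leaving Azgp1 and Iqgap2, without cross-hybridising probe sets, without dim genes, with median centring or with an intensity trend. With the mean of all probe sets Tsc22d1 also dropped out, and Fads1, higher in castration, came in. In testosterone versus castration (2) they numbered 1 with the mean of all probe sets, without cross-hybridising probe sets or without dim genes, 6 without both arrays, and 0 to 3 with 1 array left out, 0 being without castration 3 or testosterone 1. In testosterone versus sham (2) they numbered 1 with the replicate block, only the groups compared, without dim genes or with median centring, 4 with the mean of all probe sets (Azgp1 lower, Idi1, Slc26a2 and Srf higher) or without both arrays, 3 with array weights (Slc26a2, Srf and Tpd52, all higher), and 1 to 5 with 1 array left out, 5 being without sham 3. Azgp1 and Iqgap2, the 2 as reported and both lower, were not among those with array weights or without both arrays, which were all higher. In castration against both (2) they numbered 1 with the replicate block, without cross-hybridising probe sets, without dim genes or with robust variances, 3 with renewed normalisation, 4 without both arrays, and 1 to 3 with 1 array left out.

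Over all genes, calls in castration versus sham (0) numbered 2 with the mean of probe sets or an intensity trend, 5 with renewed normalisation, 174 with array weights, 18 without both arrays, and 0 to 7 with 1 array left out. Calls in testosterone versus castration (0) numbered 12 with only the groups compared or a trend, 2 with the mean of probe sets, 10 without dim genes, 22 with renewed normalisation, 59 with array weights, 27 without both arrays, and 0 to 28 with 1 array left out. Testosterone versus sham had 0 to 1 with 1 array left out. Castration against both (10) had 0 with the replicate block or median centring, 5 with the mean of probe sets, 18 without dim genes, 33 with renewed normalisation, 16 with a trend, 135 with array weights, 51 without both arrays, and 0 to 35 with 1 array left out.

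The members' median in testosterone versus sham was 0.0412 without both arrays and 0.0415 to 0.3191 with 1 array left out, the lowest without sham 2. In that comparison Fkbp5 turned to -0.0025 with array weights, and Smox to -0.18 with array weights, -0.0049 without both arrays and -0.0434 (without sham 2) to 0.4442 with 1 array left out. The cause of these changes was not tested. Same-numbered arrays correlated between -0.49 and 0.27 in their deviations from the group means, and they were not treated as pairs. With 3 arrays per group an aberrant array also shifts the deviations of the others. These correlations therefore cannot settle whether the numbers pair the arrays.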
